A study of Mus musculus with 21 samples.

Results

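The genes described here code for receptors through which serotonin, dopamine, noradrenaline and acetylcholine act on cells of the dentate gyrus. These genes also include those of the plasma membrane transporters that take up the 3 monoamines. They were chosen by gene symbol alone: Htr or Drd followed by a number, Adra, Adrb followed by a number, Chrm followed by a number, Chrna, Chrnb, and *Slc6a2*, *Slc6a3* and *Slc6a4*. The rule found 67 probe sets of 37 genes, out of 18193 genes named on the array. They were 13 serotonin receptors, 12 nicotinic subunits, 4 dopamine receptors, 3 muscarinic receptors, 2 adrenergic receptors and the 3 transporters. The rule found no Adrb gene, and *Htr2a*, *Drd5* and *Chrm2* were absent too, so these counts are not of whole families. Of the 37, 18 lay above the limit of signal used for testing and 19 lay below it.

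The dentate gyrus receives serotonin from the raphe nuclei, noradrenaline from the locus coeruleus, acetylcholine from the medial septum and sparse dopamine input from the midbrain and locus coeruleus. The cell bodies of these neurons lie outside the hippocampus, so dissected dentate tissue holds the messages of the receptors made locally and few of the messages made by the afferent neurons. Most of the receptors act through G proteins, which raise or lower cyclic AMP or release calcium, while the nicotinic receptors and the 5-HT3 receptor are ion channels. These systems are known for tuning granule cell excitability, adult neurogenesis and the storage of memory.

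Total RNA of mouse dentate gyrus was measured on 21 Affymetrix arrays, in 7 groups of 3, from mice carrying a transgene for the Nogo receptor NgR (*Rtn4r*) that needs the transactivator tTA and is kept off by doxycycline. Set 1 held bitransgenic mice (NgR transgene and tTA) from which doxycycline had been removed to switch the transgene on, bitransgenic mice kept on a doxycycline diet so that it stayed off, and monotransgenic mice (NgR transgene, no tTA) from which doxycycline had also been removed. Experiment 2 held bitransgenic mice never given doxycycline and monotransgenic mice on water, and set 3 held bitransgenic and monotransgenic mice with no treatment stated in the labels. The monotransgenic mice of experiment 2 and set 3 were taken to have the genotype of those in set 1. All 7 groups then carried the NgR transgene, and bitransgenic and monotransgenic mice differed in tTA as well as in NgR expression. No label states the promoter that drives tTA, the strain, the age or the sex, and the labels do not say whether each array stands for its own animal, so that the spread behind every p-value is that between these RNA samples.

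*Rtn4r* ranged from 254 to 1469 (median 605) in the 9 arrays with the transgene on, from 73.1 to 111 on the doxycycline diet and from 63.8 to 185 in the 9 monotransgenic arrays, and over the 3 sets it rose by 2.28 ± 0.23 log2 units (standard error; limma adjusted p = 2.47e-05). These and all intensities below are the deposited linear values, on a scale where the trimmed mean of each array is 150. All 7 markers of dentate granule cells listed (among them *Prox1*, *C1ql2* and *Calb1*) lay above the limit, with sums of 16318 to 27558 per array. The 6 arrays of experiment 2 had *Xist* at 2361 to 4750 and *Eif2s3y* at 0.316 to 9.84, the levels of female samples, while the other arrays had *Xist* at 9.59 to 33.7 and *Eif2s3y* at 395 to 680, the levels of male samples. The log2 ratio of the 3′ to the 5′ control probe sets of beta-actin, which rises as RNA is degraded, was 4.79 to 6.24 in experiment 2 and 4.11 to 5.04 in sets 1 and 3, with the highest values in bitransgenic replicate 2 (6.24) and monotransgenic replicate 1 (5.84) of experiment 2.

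Differences are given in log2 units between means of quantile-normalized log2(intensity + 16), each gene being read from its brightest probe set, and were tested with limma, a linear model fitted to all 12499 genes above the limit with the spread pooled over the 7 groups. Adjustment was by Benjamini-Hochberg over those 12499 genes, and a difference was called at an adjusted p under 0.05. None of the 18 receptor and transporter genes was called in any of the 11 comparisons. In the comparisons of 3 arrays against 3, the 95% interval of a gene's difference reached 0.29 to 0.76 log2 units to either side (median 0.51 over the 18 genes), and in the mean over the 3 sets 0.17 to 0.44.

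The promoters of *Chrna7* and *Htr5a* are shown because these 2 genes were among those of lowest p over the 3 sets, described below. RefSeq promoter sequences on build GRCm38.p6, each running from 250 bases before to 50 after an annotated start, were held for 29 of the 37 genes. Each is printed 5′ to 3′ on the strand of its gene, and capitals mark a GC box (GGGCGG, searched on both strands). The promoter of *Chrna7* lies on the minus strand at chr7:63212477-63212776 and that of *Htr5a* on the plus strand at chr5:27841697-27841996.
Chrna7: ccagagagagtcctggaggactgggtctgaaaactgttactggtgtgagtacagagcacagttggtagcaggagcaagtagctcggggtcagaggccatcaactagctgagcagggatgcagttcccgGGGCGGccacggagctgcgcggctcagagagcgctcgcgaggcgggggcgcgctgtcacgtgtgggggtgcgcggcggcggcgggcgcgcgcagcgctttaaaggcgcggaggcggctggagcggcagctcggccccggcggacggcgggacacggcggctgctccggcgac
Htr5a: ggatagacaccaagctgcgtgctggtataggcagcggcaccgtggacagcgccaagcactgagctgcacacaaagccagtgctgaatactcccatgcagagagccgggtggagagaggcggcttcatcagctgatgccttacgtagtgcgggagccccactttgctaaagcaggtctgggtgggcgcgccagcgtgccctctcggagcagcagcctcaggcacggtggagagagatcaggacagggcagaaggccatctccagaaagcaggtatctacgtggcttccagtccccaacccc
The *Chrna7* promoter had a GC content of 70.0% and that of *Htr5a* 61.3%, against a median of 52.7% over 32851 mouse promoters of the same length. *Chrna7* held 1 GC box and *Htr5a* none, and a GC box was found in 35.7% of all promoters. Neither held the core of the cyclic AMP response element (TGACG, found in 20.8% of all promoters) or a TATA box (TATAAA, found in 13.6%), both searched on both strands. These matches describe the letters of the window only.

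Of the serotonin receptors, 9 of 13 lay above the limit. They were *Htr1a*, *Htr1b* and *Htr5a*, whose receptors lower cyclic AMP, and *Htr4*, *Htr6* and *Htr7*, whose receptors raise it. Also above the limit were *Htr2c*, whose receptor releases calcium through Gq, *Htr3a*, the subunit required for the 5-HT3 channel, and *Htr5b*. The other 4 were *Htr1d*, *Htr1f*, *Htr2b* and *Htr3b*. *Drd1*, which couples to Gs, was the only dopamine receptor of 4 above the limit, and *Drd2*, a marker of hilar mossy cells in the mouse, lay just below it with arrays from 1.59 to 32.0 and a mean of 4.80 on the log2 scale. The limit was 4.90, and the lowest mean above it was 4.96, that of *Chrna4*. *Chrm1*, the Gq-coupled M1 receptor of principal neurons, was the only muscarinic receptor of 3, and *Adra2c*, an adrenergic receptor that lowers cyclic AMP, the only adrenergic receptor of 2. The nicotinic subunits above the limit were *Chrna7*, which forms homomeric channels with high calcium permeability, *Chrna4* and *Chrnb2*, which together form the main high-affinity nicotine receptor of the brain, and *Chrna1*, the alpha subunit of the muscle receptor. The noradrenaline transporter *Slc6a2* and the dopamine transporter *Slc6a3* lay above it and the serotonin transporter *Slc6a4* below it, with arrays from 0.658 to 17.0.

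**Figure D1:**
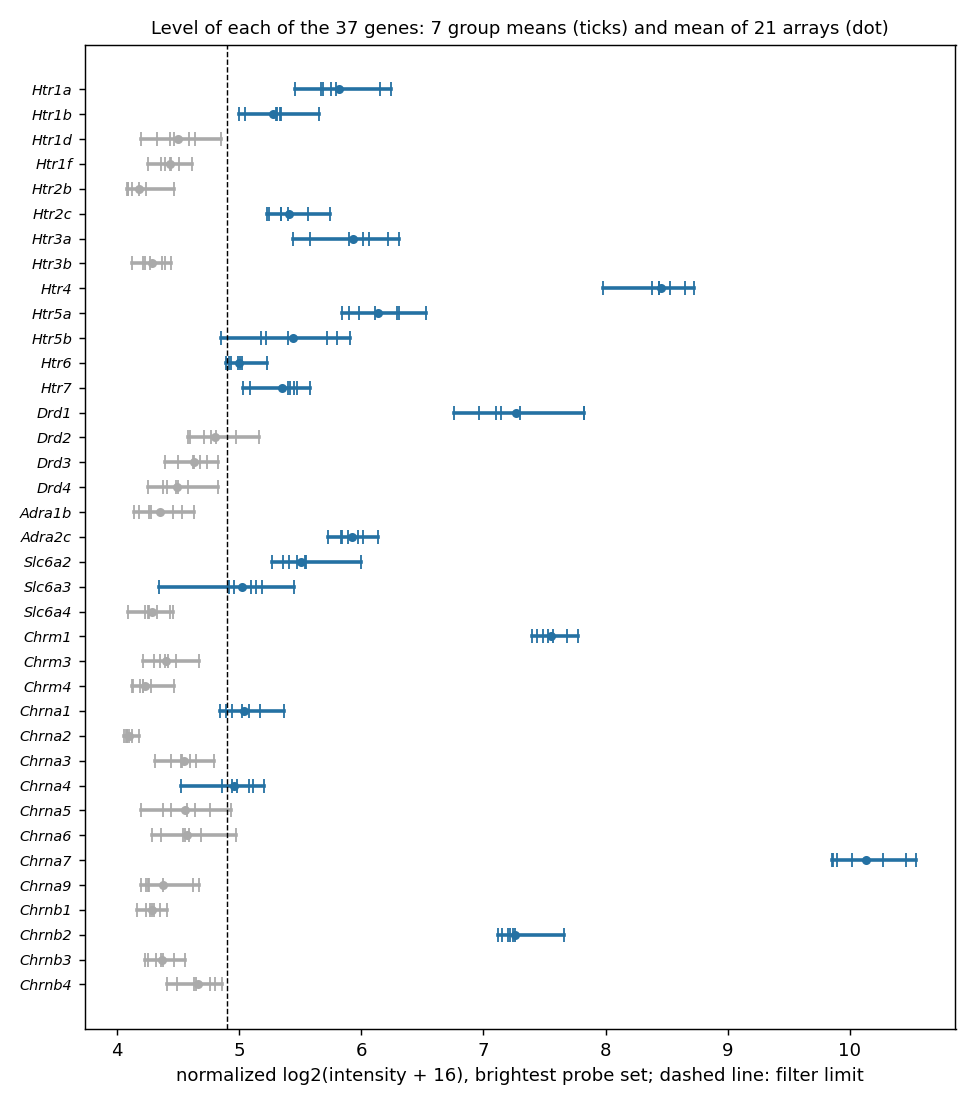
Normalized log2(intensity + 16) of each of the 37 genes, read from its brightest probe set: ticks are the 7 group means, the dot is the mean of the 21 arrays, and the dashed line is the limit of 4.90 (blue, the 18 genes above it; grey, the 19 below). The means of the 19 genes below the limit run from 4.10 to 4.80, close to the floor of 4 that the added 16 sets, so their values carry little information on the groups; levels of different probe sets are not comparable.

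The 19 genes below the limit were listed at low intensity in every group. *Chrna2* ranged from 0.431 to 4.94 over the 21 arrays and *Htr2b* from 0.355 to 10.1, while *Chrna5*, an accessory subunit, ranged from 0.318 to 23.6 and *Chrnb4*, which codes for a partner of the alpha3 subunit, from 0.881 to 21.5. *Chrna5*, *Chrna3* and *Chrnb4* neighbour each other on chromosome 9, *Chrnb3* and *Chrna6* on chromosome 8, and *Htr3b* is the neighbour of *Htr3a* on chromosome 9. Of these 7 genes *Htr3a* alone lay above the limit. A low intensity on an array can come from a probe set that binds its message poorly as well as from a rare message, and these genes were not tested.

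Within set 1, doxycycline removal against the doxycycline diet compares the transgene on with the transgene off in mice of 1 genotype. The groups also differ in doxycycline itself, and drug and transgene cannot be told apart here. None of the 18 genes was called, against 0.032% of all genes tested. At an unadjusted p under 0.05 in limma there were 5 of the 18 (*Drd1*, *Htr1a*, *Slc6a3*, *Htr5a* and *Htr2c*), against 5.06% of all genes. In 5 of the 18 the normalized values of the groups did not overlap, 4 higher (*Drd1*, *Htr5a*, *Htr2c* and *Htr1b*) and 1 lower (*Htr1a*) after removal, against 16.2% of all genes. The median difference of the 18 was 0.00, with 9 higher and 9 lower, and that of all genes −0.01.

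*Drd1*, on chromosome 13, had intensities of 167, 239 and 217 after removal, against 71.5, 68.1 and 160 on the diet. All 3 arrays after removal lay above the diet arrays, of which replicate 3 stood apart at a value close to the lowest after removal. The difference was 1.07 ± 0.32 log2 units (standard error; 95% interval 0.41 to 1.73, limma adjusted p = 0.451). The monotransgenic mice of set 1 had 211, 183 and 238, which overlapped the arrays after removal, and the difference of removal from monotransgenic mice was 0.01 (95% interval −0.65 to 0.67). It was the diet group that stood lower, by −1.06 ± 0.32 against monotransgenic mice (limma adjusted p = 0.767). A tissue sample that holds fewer cells with a message cannot be told apart here from cells that hold less of it. In experiment 2 *Drd1* had 97.2, 136 and 115 in bitransgenic mice, against 93.5, 101 and 147 in monotransgenic mice, and in set 3 it had 110, 150 and 120 in bitransgenic mice, against 144, 80 and 276 in monotransgenic mice. The groups overlapped in both sets, and the mean over the 3 sets was 0.00 (95% interval −0.39 to 0.38).

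*Drd1* is also a gene of striatal neurons, so striatal markers are given beside it. Of 5 listed, 3 were named on the array and 2 (*Penk* and *Rgs9*) lay above the limit, while *Ppp1r1b*, which codes for DARPP-32, lay below it at a mean of 4.89. Their summed intensity was 157 to 206 after removal and 145 to 193 on the diet, while monotransgenic mice had 563 to 669. The gap lay in *Penk*, at 57.5 to 106 after removal and 54.6 to 80.8 on the diet, while monotransgenic mice had 459 to 577. *Rgs9* had 82.5 to 91.7 after removal and 77.8 to 95.7 on the diet, while monotransgenic mice had 76.1 to 100, with overlap of all 3 groups. The part of striatal tissue in the values of *Drd1* was not tested. In set 3 the sums ran from 216 to 354 in bitransgenic mice and from 248 to 728 in monotransgenic mice.

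*Htr1a*, which codes for an inhibitory receptor found on granule cells, had 39.3, 40.7 and 23.1 after removal, against 52.9, 61.4 and 67.4 on the diet. Every array after removal lay below every diet array. The difference was −0.57 ± 0.20 (95% interval −0.99 to −0.15, limma adjusted p = 0.698). Monotransgenic mice of set 1 had 62.3, 62.5 and 42.2, and the difference of removal from them was −0.48 (95% interval −0.90 to −0.05, limma adjusted p = 0.544; −0.63 to −0.30 with an array left out), with overlap in the normalized values.

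*Htr5a*, which codes for the 5-HT5A receptor, had 89.1, 64.6 and 68.2 after removal, against 55.0, 43.8 and 45.9 on the diet, while monotransgenic mice had 38.7, 34.5 and 53.5. The arrays after removal lay above all 6 others of the set. The difference was 0.55 ± 0.22 from the diet (limma adjusted p = 0.844) and 0.68 ± 0.22 from monotransgenic mice (95% interval 0.22 to 1.14, limma adjusted p = 0.334). *Htr2c* had 36.1, 35.6 and 36.8 after removal, against 22.8, 20.3 and 26.0 on the diet. The arrays after removal were nearly equal and lay above the diet arrays, by 0.50 (limma adjusted p = 0.964). Monotransgenic mice, at 22.5, 40.6 and 34.5, spanned both ranges.

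*Slc6a3* was read near the floor. It had 18.3, 3.06 and 28.5 after removal, against 5.59, 2.84 and 5.48 on the diet, and monotransgenic mice had 27.8, 24.9 and 32.9. The 3 diet arrays and replicate 2 after removal lay below the limit and the others of the set above it. The difference between removal and diet was 0.62 (limma adjusted p = 0.826) with overlap, a size that the added 16 limits since the diet group lies below the limit. It was 0.34 without replicate 3 after removal and 0.98 without replicate 2, and 0.24 to 1.38 over the other settings.

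**Figure D2:**
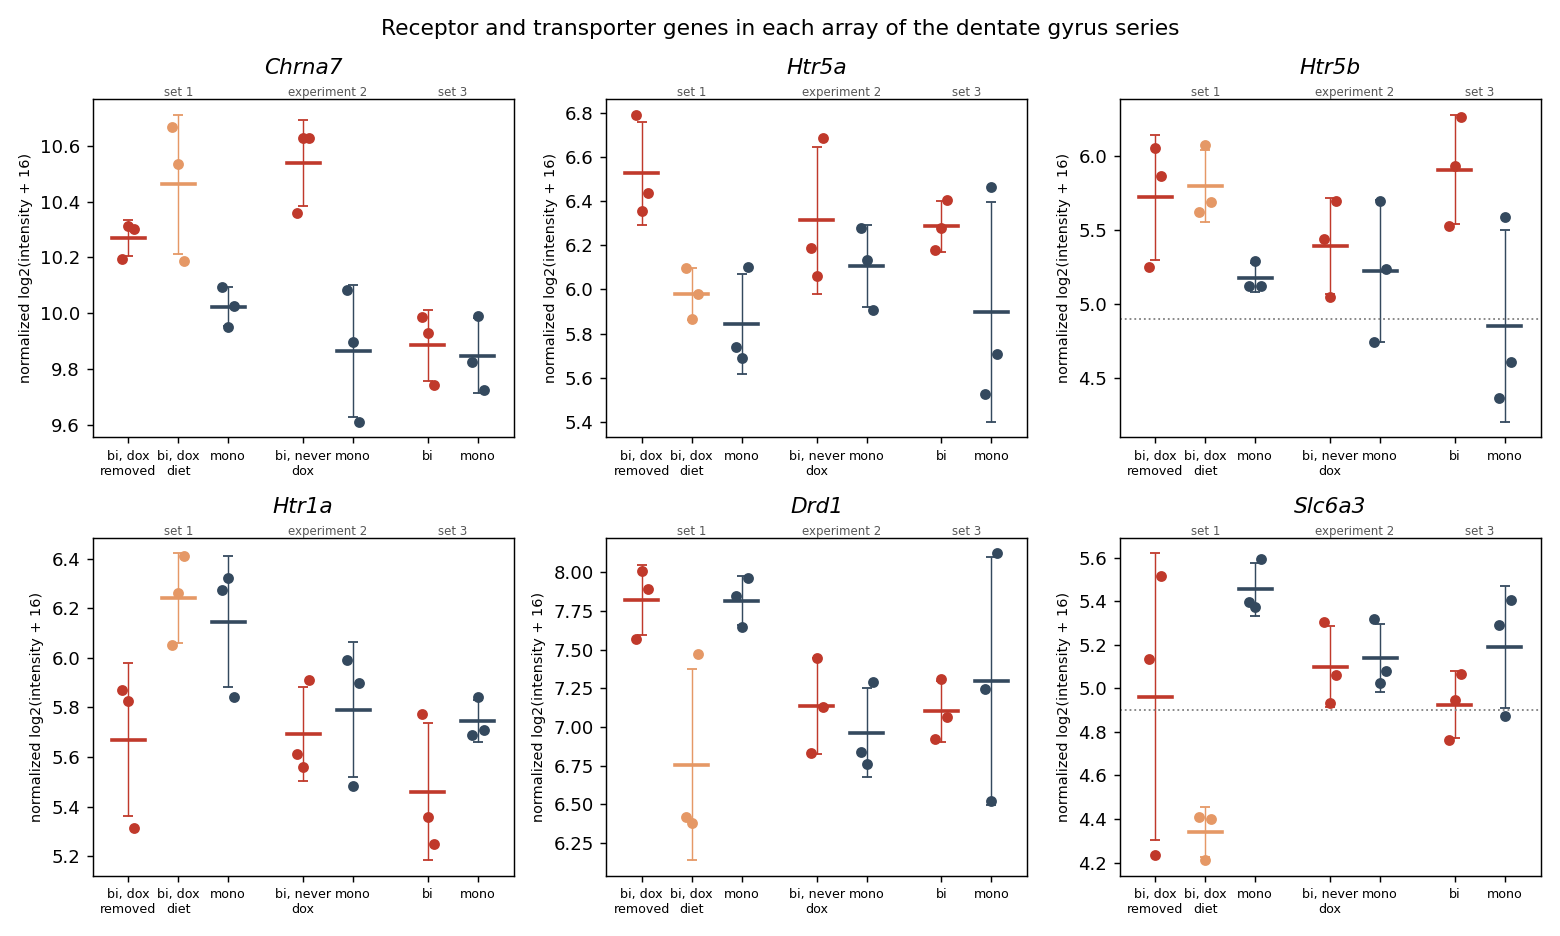
Normalized log2(intensity + 16) of 6 genes in each of the 21 arrays (points), with group means (bars) and SDs (error bars, n = 3), for bitransgenic (bi) and monotransgenic (mono) mice of the 3 sets; the dotted line is the limit of 4.90 where it falls in the range, and the vertical axes are log2 scales that do not start at 0. Within set 1 the diet arrays of *Slc6a3* all lie below the limit and 2 of the 3 diet arrays of *Drd1* lie below all others, and *Chrna7* is higher in all 3 bitransgenic than in all 3 monotransgenic arrays of experiment 2 (1309 to 1713, against 743 to 1072).

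Against the monotransgenic mice of set 1, the mice after doxycycline removal gave none called of 18, against 0.072% of all genes. Unadjusted p was under 0.05 in limma for 3 of the 18 (all genes 7.85%), namely *Htr5a*, *Htr7* and *Htr1a*. In 3 of the 18 the groups did not overlap (all genes 22.2%): *Htr5a* and *Chrna7* were higher and *Htr7* lower. *Htr7*, which codes for a Gs-coupled receptor, had 15.4, 20.6 and 18.1 after removal, against 33.7, 24.1 and 40.8 in monotransgenic mice. Those after removal were all lower, by −0.49 ± 0.19 (95% interval −0.89 to −0.09, limma adjusted p = 0.49). The diet group, at 18.4, 15.7 and 19.6, was as low as the group after removal.

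The diet group against the monotransgenic mice, in both of which the transgene was off, differs in tTA and in doxycycline. None of 18 was called, against 0.024% of all genes, and 4 (*Slc6a3*, *Drd1*, *Chrna7* and *Htr7*) had an unadjusted p under 0.05 in limma, against 3.85% of all genes. The groups did not overlap in 6 of the 18, against 14.8% of all genes, with *Chrna7* and *Htr5b* higher on the diet and *Slc6a3*, *Drd1*, *Htr7* and *Htr3a* lower. *Slc6a3* showed the lowest p, with a difference of −1.11 (limma adjusted p = 0.219). All 3 diet arrays lay below the limit, so the size is not a measured level ratio: it depends on the added number, and with pseudocounts of 1 and 64 in place of 16 and the other settings it ran from −2.49 to −0.43. With array weights, which give less weight to arrays that fit poorly, its adjusted p in limma was 0.0177. Over all genes that setting called 41 in this comparison, against 3 in the main fit. *Htr7* differed by −0.55 (limma adjusted p = 0.894), and *Htr3a*, at 31.6, 34.4 and 21.5 on the diet against 43.0, 36.4 and 81.0 in monotransgenic mice, by −0.62 (95% interval −1.37 to 0.14). *Chrna7* differed by 0.44 ± 0.14 (95% interval 0.15 to 0.73, limma adjusted p = 0.855) in the bitransgenic mice with the transgene off. The comparisons of removal and of diet with monotransgenic mice share the same 3 monotransgenic arrays.

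The 2 groups of bitransgenic mice and the monotransgenic mice of set 1 also differed in markers of other tissue. Of 4 meningeal markers listed, 3 lay above the limit (*Ogn*, *Lum* and *Dcn*, with *Igf2* below), and their sum was 63.3 to 80.6 after removal and 68.1 to 84.6 on the diet, against 704 to 873 in monotransgenic mice. *Ogn* fell by 4.16 log2 units and *Lum* by 1.48 after removal, and *Ogn* fell by 4.37 on the diet, each against monotransgenic mice (limma adjusted p = 0.0322, 0.0467 and 0.0378). These calls depended on the arrays included: no gene was called lower after removal in 4 of the 6 fits that left an array out (without replicate 1 or 3 after removal or monotransgenic replicate 1 or 2), and none was called at all in the 6 such fits for the diet. The meningeal marker *Dcn* did not reach an unadjusted p under 0.05 in limma in either comparison. All 4 CA1 markers listed lay above the limit, and their sum was 501 to 644 after removal and 584 to 706 on the diet, against 850 to 1051 in monotransgenic mice. Most of the CA1 gap lay in *Lypd1*, with means of 258 after removal and 257 on the diet, against 502. *Wfs1* had means of 281 after removal and 343 on the diet, against 383 in monotransgenic mice. *Pou3f1* had 16.5 and 26.2, against 39.1. *Fibcd1* had means of 17.4 after removal and 33.8 on the diet, against 28.4 in monotransgenic mice. The part of these tissues in the differences of *Htr7*, *Htr5a*, *Htr1a*, *Chrna7* and *Slc6a3* from monotransgenic mice was not tested. Of the 14 marker lists, the sums of 6 were apart and lower after removal than in monotransgenic mice: those of meninges, CA1 and striatum, and also of granule cells (18271 to 21640 after removal, against 22016 to 27558), astrocytes (3113 to 3279, against 3646 to 4199) and microglia (916 to 1089, against 1178 to 1604). Among the granule cell markers *C1ql2* differed by −1.80 (limma adjusted p = 0.347) and *Calb1* by −0.49 (limma adjusted p = 0.243). Not all the granule cell markers were lower: *Tdo2* had a mean of 712 after removal, against 540 in monotransgenic mice. *Dsp* was nearly level, with means of 3872 after removal and 3945 in monotransgenic mice. On the diet 3 lists were apart from monotransgenic mice, those of meninges, CA1 and striatum. Between removal and diet, 2 of the 14 were apart, with lower sums after removal for astrocytes (3113 to 3279, against 3630 to 4415 on the diet) and microglia (916 to 1089, against 1108 to 1345 on the diet), and the part of these in the differences of *Drd1*, *Htr1a*, *Htr5a* and *Htr2c* was not tested.

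Experiment 2 compared bitransgenic mice that had never received doxycycline with monotransgenic mice. None of 18 was called, against 0.096% of all genes, 3 (*Chrna7*, *Slc6a2* and *Chrnb2*) had an unadjusted p under 0.05 in limma, against 14.4% of all genes, and 1 (*Chrna7*) had groups that did not overlap, against 8.69%. The median difference of the 18 was 0.08, with 11 higher and 7 lower, and that of all genes 0.02.

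*Chrna7* had 1309, 1713 and 1645 in bitransgenic mice, against 1072, 889 and 743 in monotransgenic mice. Every bitransgenic array lay above every monotransgenic array. The difference was 0.67 ± 0.14 (95% interval 0.38 to 0.97, limma adjusted p = 0.0616) and did not pass. It passed in limma on the deposited scale (adjusted p = 0.0242), with centring on the 75th percentile (0.0423), with array weights (0.00337) and without the 2 arrays of highest actin ratio, a setting chosen after seeing the data (0.74, adjusted p = 0.0139). It also passed without monotransgenic replicate 1 (0.78, limma adjusted p = 0.0103) or without bitransgenic replicate 1 (0.76, limma adjusted p = 0.0299). These settings called 40, 18, 895, 522, 644 and 361 of all genes, in the order given, against 12 in the main fit. Over the settings the adjusted p ranged from 0.00337 to 0.938, the last in a fit of the 6 arrays of experiment 2 alone, and the difference from 0.60 to 0.92. Its other probe set above the limit, at 44.0, 25.0 and 18.9 in bitransgenic mice against 9.95, 26.6 and 4.07 in monotransgenic mice, differed by 0.82 with overlap. Of the 14 marker lists 3 were apart in experiment 2. Meningeal sums were 92.3 to 123 in bitransgenic mice, against 155 to 584 in monotransgenic mice, and those of endothelial cells and pericytes 243 to 275, against 312 to 474. With the sums of monoamine and cholinergic cell bodies given below, their part in the value of *Chrna7* was not tested.

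*Slc6a2* had 36.0, 49.8 and 43.7 in bitransgenic mice, against 28.0, 60.6 and 17.2 in monotransgenic mice. The bitransgenic values fell inside the monotransgenic range. The difference was 0.53 ± 0.24 (95% interval 0.03 to 1.03, limma adjusted p = 0.327). It was 0.29 without monotransgenic replicate 3 and 0.84 without monotransgenic replicate 2. *Chrnb2* had 144, 267 and 144 in bitransgenic mice, against 98, 142 and 167 in monotransgenic mice. Bitransgenic replicate 2, the array of highest actin ratio, stood alone at the top. The difference was 0.46 ± 0.21 (limma adjusted p = 0.33), 0.16 without bitransgenic replicate 2 and 0.01 without the 2 arrays of highest actin ratio. *Chrm1* had 238, 96.6 and 150 in bitransgenic mice, against 61.1, 318 and 238 in monotransgenic mice, a spread within each group that left a difference of −0.04 with a 95% interval of −0.78 to 0.70.

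Of the 5 markers of monoamine and cholinergic cell bodies listed, *Dbh* and *Chat* lay above the limit, and *Th*, *Tph2* and *Slc18a2* below it at means of 4.76, 4.85 and 4.45. Their summed intensity was 211 to 295 in the bitransgenic mice of experiment 2 and 145 to 192 in its monotransgenic mice, so that the groups did not overlap, and 94.6 to 171 in the groups of set 1. *Dbh*, the enzyme that makes noradrenaline, had 156 to 235 in bitransgenic mice, against 97.4 to 140 in monotransgenic mice, and differed by 0.64 ± 0.22 (limma adjusted p = 0.223). *Chat*, the enzyme that makes acetylcholine, had 10.5 to 26.4, against 22.4 to 26.7, and differed by 0.00 (limma adjusted p = 0.998), so that most of the gap in the sum lay in *Dbh*. Its part in the value of *Slc6a2*, the transporter of noradrenaline, was not tested.

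In set 3 none of 18 was called, as of all genes tested (0%), 1 had an unadjusted p under 0.05 in limma, against 4.19% of all genes, and none had groups that did not overlap, against 13.5%. *Htr5b*, which codes for a receptor of rodents whose human gene makes no working protein, had 27.3, 44.5 and 62.5 in bitransgenic mice, against 4.60, 32.5 and 6.65 in monotransgenic mice. Monotransgenic replicate 2 lay among the bitransgenic arrays and the other monotransgenic arrays far below. The difference was 1.06 ± 0.30 (95% interval 0.43 to 1.69, limma adjusted p = 1). Without monotransgenic replicate 2 it was 1.43 (limma adjusted p = 0.0282), and with array weights 1.16 (limma adjusted p = 0.0462). Those settings called 73 and 39 of all genes, against 0 in the main fit.

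The same monotransgenic replicate 2 stood apart for other members. *Htr5a* had 55.7, 62.3 and 70.3 in bitransgenic mice, against 30.8, 76.1 and 34.9 in monotransgenic mice, with a difference of 0.39 (95% interval −0.07 to 0.85), which was 0.67 without that replicate and 0.20 without monotransgenic replicate 1. *Chrna4* had 13.9, 19.2 and 9.16 in bitransgenic mice, against 14.3, 0.320 and 6.15 in monotransgenic mice, with a difference of 0.46 (95% interval −0.06 to 0.98), which was 0.22 without that replicate. In *Drd1* replicate 2 was the lowest of its group at 80, and replicate 3 the highest at 276. *Htr4*, a Gs-coupled receptor known from granule cells, had 261, 299 and 187 in bitransgenic mice, against 382, 231 and 396 in monotransgenic mice, with a difference of −0.40 (95% interval −0.92 to 0.13). Meningeal marker sums ran from 67.6 to 210 in bitransgenic mice and from 79.8 to 958 in monotransgenic mice of set 3, and their part in these values was not tested.

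Over the 3 sets, the mean of the differences between bitransgenic mice with the transgene on and the monotransgenic mice of the same set again called none of 18, against 0.072% of all genes. An unadjusted p under 0.05 in limma was found for 4 (*Chrna7*, *Htr5b*, *Htr5a* and *Htr1a*), against 11.8% of all genes. The sign was the same in the 3 sets for 10 of 18, against 29.7% of all genes: *Chrna1*, *Chrna4*, *Chrna7*, *Htr5a*, *Htr5b* and *Slc6a2* were higher in each and *Adra2c*, *Htr1a*, *Htr7* and *Slc6a3* lower in each. Several of these signs rest on differences near 0. *Htr7* differed by −0.02 in both experiment 2 and set 3, and *Chrna7* by 0.04 in set 3. In experiment 2 *Chrna4* differed by 0.03 and *Slc6a3* by −0.04. *Chrna1* was read near the floor, with a mean of 5.04 on the log2 scale.

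*Chrna7* averaged 0.32 ± 0.08 (95% interval 0.15 to 0.49, limma adjusted p = 0.0952), with 0.24 in set 1, 0.67 in experiment 2 and 0.04 in set 3. Its intensities in set 1 were 1179, 1269 and 1256 after removal, against 1072, 976 and 1027 in monotransgenic mice, and in set 3 1004, 964 and 832 in bitransgenic mice, against 883, 999 and 846 in monotransgenic mice. The groups were apart in set 1 and overlapped in set 3. The mice on the diet had 1574, 1450 and 1163, the highest mean of set 1, and removal differed from them by −0.19 (95% interval −0.49 to 0.10). Labels exchanged within the 3 sets gave an exact permutation p of 0.0035 (8000 relabelings, two-sided, not adjusted).

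*Htr5b* averaged 0.59 ± 0.18 (95% interval 0.23 to 0.96, limma adjusted p = 0.152, exact permutation p = 0.0152) and *Htr5a* 0.43 ± 0.13 (95% interval 0.16 to 0.69, limma adjusted p = 0.154, exact permutation p = 0.011). Over the settings the mean of *Htr5b* ran from 0.27 to 1.01. *Htr5b* had 20.9, 49.7 and 40.5 after removal, against 20.6, 23.0 and 19.2 in the monotransgenic mice of set 1, and the diet group had 35.6, 52.6 and 35.0. Both bitransgenic groups of set 1, with the transgene on or off, thus held arrays above all the monotransgenic ones, and their difference was −0.07 (95% interval −0.71 to 0.56). In experiment 2 *Htr5b* had 26.6, 15.4 and 31.4 in bitransgenic mice, against 13.4, 43.2 and 23.5 in monotransgenic mice, and *Htr5a* had 56.0, 43.7 and 79.5, against 61.8, 62.4 and 48.5. Both genes overlapped there, with differences of 0.17 and 0.21. The mean of *Htr5b* passed in limma without set 3 monotransgenic replicate 2 (0.71, adjusted p = 0.0165), as did those of *Htr5a* (0.52, adjusted p = 0.0148) and *Chrna7* (0.34, adjusted p = 0.0335). The mean of *Chrna7* also passed without experiment 2 monotransgenic replicate 1 (limma adjusted p = 0.033), and those of *Chrna7* and *Htr5a* without the 2 arrays of highest actin ratio (limma adjusted p = 0.0281 and 0.0474). Of all 12499 genes, these fits called 316, 222 and 416 in that order, against 9 in the main fit.

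*Htr1a* averaged −0.29 ± 0.12 (95% interval −0.53 to −0.04, limma adjusted p = 0.323, exact permutation p = 0.0315). It had 31.8, 27.6 and 38.7 in bitransgenic mice of experiment 2, against 49.4, 35.2 and 48.1 in monotransgenic mice, and 36.5, 22.5 and 21.3 in bitransgenic mice of set 3, against 37.2, 43.1 and 34.9 in monotransgenic mice. The groups overlapped in each set, with most bitransgenic arrays at the lower end. The other probe set of *Htr1a* above the limit did not repeat this, with a mean of 0.06 over the 3 sets. *Adra2c*, lower in each set, had 23.8, 52.8 and 34.9 after removal, against 44.1, 45.2 and 41.6 in monotransgenic mice, and 49.6, 45.4 and 53.5 on the diet. In experiment 2 it had 39.9, 23.9 and 52.8 in bitransgenic mice, against 53.8, 56.0 and 70.0 in monotransgenic mice, and in set 3 43.6, 30.1 and 47.9, against 54.6, 26.4 and 71.2. In experiment 2 no bitransgenic array reached the monotransgenic range in deposited intensity, but the normalized values overlapped, and the mean over the sets was −0.20 (95% interval −0.49 to 0.09). By the other probe set of *Adra2c* above the limit that mean was 0.11. The remaining differences over the 3 sets ran from −0.27 (*Slc6a3*) to 0.29 (*Slc6a2*).

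**Figure D3:**
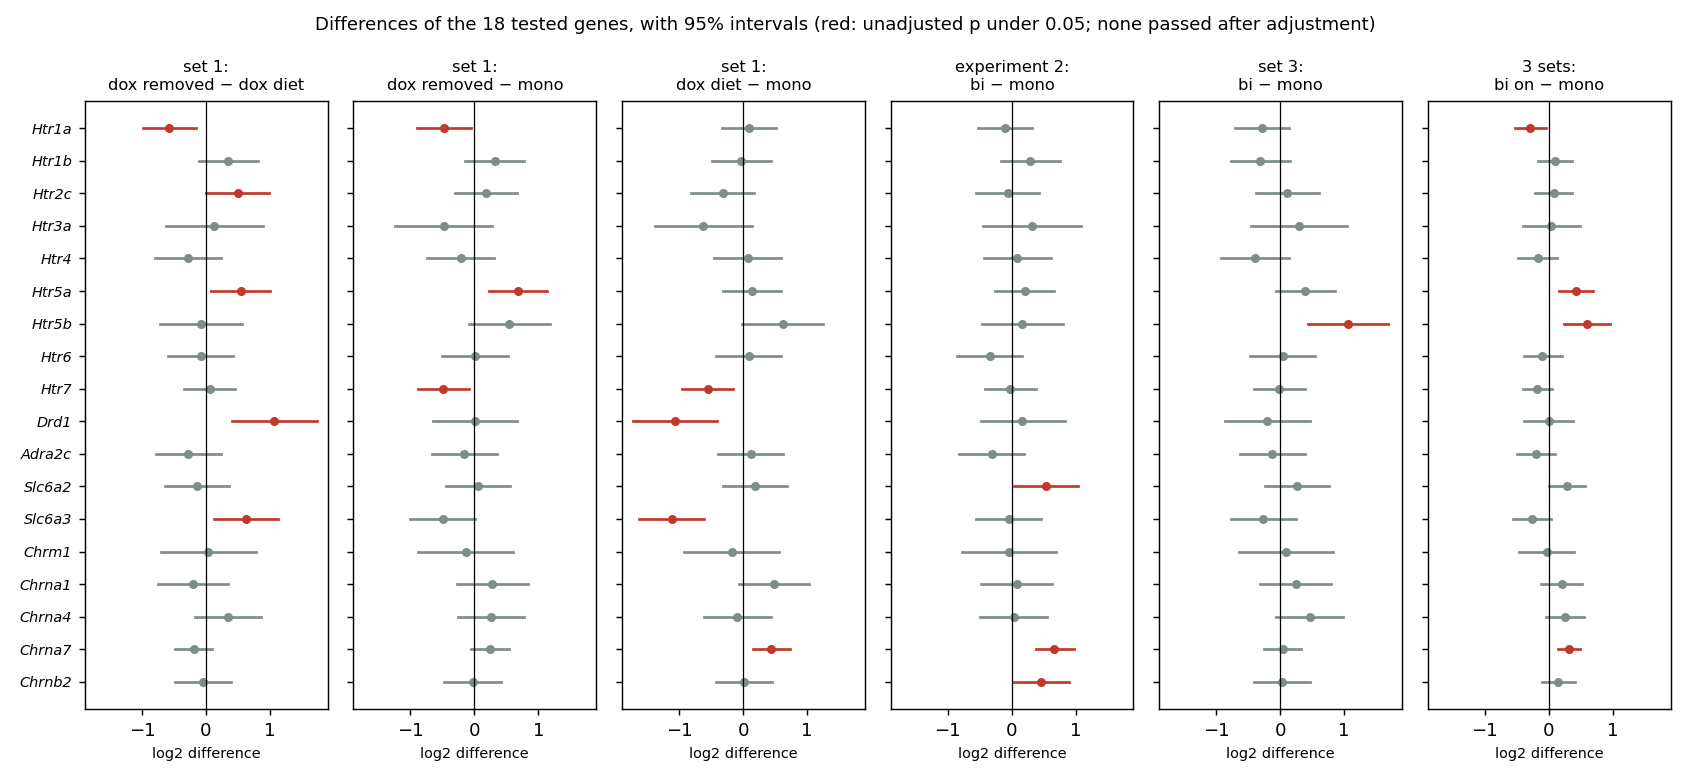
Log2 difference (point) and 95% interval (line) of each of the 18 genes above the limit in 6 comparisons, bitransgenic minus monotransgenic mice except in the panel of removal minus diet; red marks an unadjusted limma p under 0.05. No gene passed after adjustment over all 12499 genes, and differences beyond 1 log2 unit are those of *Drd1* (1.07 after removal against diet and −1.06 on the diet against monotransgenic mice), *Htr5b* (1.06 in set 3) and *Slc6a3* (−1.11 on the diet against monotransgenic mice, a size that depends on the added 16 because all 3 diet arrays lie below the limit). The size for *Htr5b* also depends on the added 16, because the monotransgenic mean of set 3 (4.85) lies below the limit.

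The differences were also compared between sets. Experiment 2 against set 1 and experiment 2 against set 3 each had 1 of 18 with an unadjusted p under 0.05 in limma (7.9% and 8.08% of all genes), and set 3 against set 1 had none (3.51%). None of 18, and none of all genes (0%), was called in these 3 comparisons of differences. The gene was *Chrna7* both times: the difference of experiment 2 exceeded that of set 3 by 0.64 ± 0.20 (95% interval 0.22 to 1.05, limma adjusted p = 0.58) and that of set 1 by 0.43 (95% interval 0.01 to 0.84, limma adjusted p = 0.614). The arrays of experiment 2 differed from the others in sex and in actin ratio, and from those of set 1 in treatment, and these cannot be told apart here.

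The monotransgenic mice, in which the transgene was off, gave the spread between the sets. Experiment 2 against the mean of sets 1 and 3 called none of 18, against 0.32% of all genes, and 1 of 18 had an unadjusted p under 0.05 in limma, against 13.2%. That gene was *Drd1*, lower in experiment 2 by −0.59 (95% interval −1.17 to −0.02, limma adjusted p = 0.365). *Htr6* had 27.3, 14.3 and 36.3 in experiment 2, against 11.9, 11.1 and 22.8 in set 1 and 14.2, 14.8 and 13.7 in set 3. *Htr1b* had 16.9, 26.4 and 18.3 in experiment 2, against 37.4, 17.3 and 21.8 in set 1 and 28.1, 26.1 and 14.6 in set 3. Both genes overlapped between the sets, with differences of 0.28 and −0.27, and *Chrna4* (0.35) and *Htr5a* (0.24) likewise had intervals that include 0. *Chrna4* had 28.8, 15.0 and 19.4 in experiment 2, against 16.1, 11.2 and 19.8 in set 1. With an array left out the difference of *Drd1* ran from −0.79 to −0.39 and that of *Htr6* from 0.09 to 0.50. Set 3 against set 1 called none of 18, against 0.024% of all genes, and none had an unadjusted p under 0.05 in limma, against 9.18%. The groups of 1 gene, *Htr1a*, did not overlap in normalized values, against 24.1% of all genes, with a difference of −0.40 (95% interval −0.82 to 0.02). In that comparison 14 of the 18 genes were lower in set 3, with a median of −0.14 against −0.02 over all genes. *Htr2c* had 32.6, 18.9 and 12.1 in set 3, against 22.5, 40.6 and 34.5 in set 1, with overlap and a difference of −0.34. *Drd1* differed by −0.52, *Chrna4* by −0.43 and *Chrna7* by −0.18, and each of these 4 intervals includes 0. With an array left out that of *Drd1* ran from −0.93 to −0.13, *Chrna4* from −0.64 to −0.19, *Htr2c* from −0.52 to −0.19 and *Chrna7* from −0.25 to −0.11.

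Of the 37 genes 21 had several probe sets, and in 5 of those tested a further probe set lay above the limit, which gave another reading of the same arrays. For *Drd1* the other probe set gave 0.65 for removal minus diet, −0.29 for diet minus monotransgenic and 0.36 for removal minus monotransgenic. It had 111, 129 and 141 after removal, against 56.8, 74.5 and 112 on the diet, while monotransgenic mice had 97.0, 110 and 91.0. The diet group was again the lowest, with overlap. For *Htr1a* the other probe set gave −0.31 for removal minus diet and 0.08 for removal minus monotransgenic. It gave −0.08 in experiment 2, 0.18 in set 3 and 0.06 over the 3 sets, where the brightest gave −0.29. For *Chrnb2* the other probe set gave 0.17 in experiment 2. For *Adra2c* it gave 0.75 for removal minus diet, where the brightest gave −0.28.

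Over the 21 arrays the readings of the 2 probe sets correlated at r = 0.72 for *Drd1*, 0.36 for *Chrna7*, 0.27 for *Adra2c*, −0.12 for *Chrnb2* and −0.16 for *Htr1a*, given as a description of probe sets read on the same arrays. The other probe set of *Htr5a* lay below the limit, with arrays from 0.799 to 25.8.

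**Figure D4:**
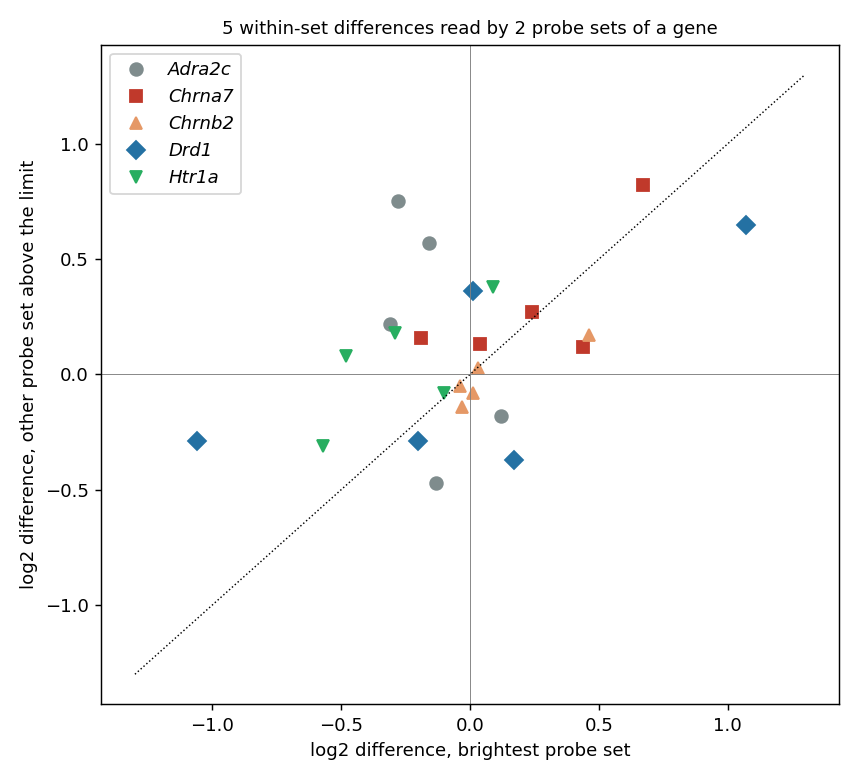
Log2 difference by the brightest probe set (horizontal) and by the other probe set above the limit (vertical) in 5 within-set comparisons for each of 5 genes; the dotted line marks equality. *Chrna7* in experiment 2 (0.67 and 0.82) and *Drd1* after removal against diet (1.07 and 0.65) have the same sign by both probe sets. So do *Drd1* (−1.06 and −0.29) and *Chrna7* (0.44 and 0.12) on the diet against monotransgenic mice, smaller by the other probe set. *Adra2c* after removal against diet (−0.28 and 0.75) lies on opposite sides of 0.

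The genes that make, store and break down these transmitters, and those that carry the receptors' signals, were listed beside them: 93 genes in 7 lists, of which 73 lay above the limit. None rose or fell in the 8 comparisons of groups by limma's adjusted p. Unadjusted p was under 0.05 in limma for 5 genes of 73 for removal against diet (all genes 5.06%), 10 for removal against monotransgenic mice (7.85%), 2 for diet against monotransgenic mice (3.85%), 11 in experiment 2 (14.4%), 5 in set 3 (4.19%) and 12 over the 3 sets (11.8%). Of 16 genes of monoamine synthesis, storage and breakdown 9 were tested, and of 7 of acetylcholine synthesis, storage and breakdown 2 (*Chat* and *Bche*). *Slc18a3*, *Slc5a7* and *Ache*, the vesicular acetylcholine transporter, the choline transporter and acetylcholinesterase, lay below the limit at means of 4.55, 4.25 and 4.86.

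The lowest adjusted p over the 3 sets in limma was 0.0619, shared by *Pde4b* at 1.19 ± 0.24 and *Pde7b* at −0.56 ± 0.12, both phosphodiesterases that break down cyclic AMP. The list of cyclic AMP and DARPP-32 genes they belong to had 20 of 22 members tested, 9 higher and 11 lower, with a median of −0.01 against 0.01 over all genes. All 16 G protein genes listed were tested, and in experiment 2 the lowest adjusted p was that of *Gnb1*, a beta subunit, at −1.40 (limma adjusted p = 0.102). Of 10 genes of nicotinic receptor assembly and modulation 8 were tested, among them *Lynx1* and *Lypd1*, whose products bind nicotinic receptors and reduce their response. *Lypd1* was lower after removal than in monotransgenic mice by −0.88 (limma adjusted p = 0.0968) and on the diet by −0.92 (limma adjusted p = 0.215), and it is also 1 of the CA1 markers whose sum differed there. Receptor kinases, arrestins and RGS proteins, which end G protein signals, were tested for 14 of 15 members, with 4 higher and 10 lower over the 3 sets and a median of −0.06, and receptor binding partners for 4 of 7, with 1 higher and 3 lower and a median of −0.13.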

How the data were processed

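The deposited intensity of each probe set is linear, and its trimmed mean per array (2% of probe sets cut at each end) was 150 throughout. No source used here names the tool that made these values, and detection calls and scanner files were not used. Of 45101 probe sets, 64 were controls, 34945 had 1 gene symbol, 932 several and 9160 none in the platform annotation, and 34741 of those with 1 symbol had an Entrez ID held by RefSeq.

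Values were turned into log2(intensity + 16) and quantile-normalized. The upper 60% of probe sets by mean (27022, a mean of 4.90 or more) were kept, and the brightest probe set stood for its gene, which left 12499 genes. A limma fit (limma 3.58.1, R 4.3.3, and the data.table package at 1.17.8) had a coefficient for each of the 7 groups over all 21 arrays, 14 residual degrees of freedom and variances moderated with a trend on level. Tests were two-sided, with Benjamini-Hochberg adjustment at 0.05. The method was tested on simulated arrays with 1 spread per gene, which cannot show how it behaves where arrays differ in spread. Exact permutation exchanged labels within sets. Errors on differences are standard errors, and overlap was judged on normalized values. With 3 arrays a group, the number of arrays limits the precision, and an exact test within a set cannot go below p = 0.1.

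The members, lists and tests were chosen with earlier results of these data known. Per-array values were given for the 3 members of lowest p in each of 6 comparisons with bitransgenic mice and for the 5 of lowest p in each of the 2 between monotransgenic groups, and those of *Adra2c*, *Htr3a*, *Htr4* and *Chrm1* were added after their values were seen. *Pde4b*, *Pde7b*, *Gnb1*, *Lypd1* and *Dbh* were named from the lists by lowest p. Marker sums are sums of deposited intensity over the listed markers named on the array, those below the limit included.

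Alternatives were array weights, a fit with no variance trend, fits of a set alone or without experiment 2, pseudocounts of 1 or 64, the upper 40% of probe sets or no filter, averaging the probe sets of a gene, the deposited scale or 75th percentile centring, the actin ratio as covariate, the title prefix in set 3, an adjusted p threshold of 0.1, and each array left out in turn. Added after seeing the data was a fit without the 2 arrays whose actin ratio was highest. Figures were drawn with matplotlib 3.10.9 in Python 3.11.15.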

Additional observations from a re-analysis of the deposited data

How the results depend on the processing

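Differences were followed over the settings for the 3 members of lowest p in each of 6 comparisons with bitransgenic mice. They were also followed for the 5 of lowest p in each of the 2 comparisons between monotransgenic groups. None of these differences changed its sign in any setting. Signs of the other differences given here, such as that of *Htr1a* over the 3 sets, were not followed. The count of genes past the threshold was 0 in all 11 comparisons, and in 7 of them it stayed 0 under every setting. For diet against monotransgenic mice it was 1 with array weights (*Slc6a3*, limma adjusted p = 0.0177). Of all genes, 41 were then called, against 3 in the main fit. In experiment 2 it was 1 on the deposited scale, 1 with centring on the 75th percentile, 1 with array weights, 1 at a threshold of 0.1 and 1 without the 2 arrays of highest actin ratio, each time *Chrna7*, and it ranged from 0 to 1 when each array was left out. Of all genes, those 5 settings called 40, 18, 895, 41 and 522 in that order, against 12 in the main fit. In set 3 it was 1 with array weights (*Htr5b*) and 0 to 1 with each array left out. Over all genes, 39 were called there with array weights and 73 without monotransgenic replicate 2, against 0 in the main fit. Over the 3 sets it was 3 with array weights (*Chrna7*, *Htr5a* and *Htr5b*), 1 at a threshold of 0.1, 2 without the 2 arrays of highest actin ratio and 0 to 3 with each array left out. Of all 12499 genes, 1370 were called with array weights, 128 at the threshold of 0.1 and 416 without the 2 arrays, against 9 in the main fit. The cause of these moves was not tested. The call of *Chrna7* in experiment 2 over 13 settings had limma adjusted p from 0.00337 to 0.938, with 5 settings past the threshold. The count over all genes in experiment 2, 12, ranged from 0 to 895 over the settings and from 5 to 644 with an array left out, and that over the 3 sets, 9, from 5 to 1370 and from 3 to 316. Removal against monotransgenic mice called 9 genes, with 4 to 328 over the settings and 0 to 6 with an array left out (0 without monotransgenic replicate 1 or 2).

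No paired analysis was possible because the sample numbers in the titles are not shared between the groups compared and the replicate numbers used here only name arrays. Some title prefixes of set 3 occur in both groups, but the labels do not say what they mark. With them as a factor *Htr5b* differed by 1.06 (limma adjusted p = 0.957).

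Groups of 3 arrays, probe sets near the floor (*Slc6a3*, *Chrna1*, *Chrna4*, *Htr6* and *Htr5b*) and differences between sets in sex, actin ratio and tissue markers limit every value given here.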
